A study of Mus musculus with 4 samples.

Results

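The PYHIN genes of mouse chromosome 1 and the Trim5-cluster genes of chromosome 7 were followed over genotype and lipopolysaccharide (LPS) in bone marrow macrophages. The set held 9 genes, 5 PYHIN genes (Ifi202b, Ifi203, Ifi204, Aim2 and Mndal) and 4 Trim genes (Trim12a, Trim5, Trim30a and Trim30d). They were chosen by name and position, as members of gene clusters known to vary between mouse strains. All of their probe sets annotated to 1 gene were used, 13 of 34945 such probe sets and 9 of 18193 genes on the array. The choice was made with the genotype differences of these 4 arrays known, so those differences are given as descriptions with no test. In the RefSeq gene table all 5 PYHIN genes lie on chromosome 1 and all 4 Trim genes on chromosome 7, as the name of the set says.

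The cells were bone marrow cells cultured with M-CSF, the macrophage growth factor, for 5 days. There were 4 groups of 1 array each: Jmjd3-/- cells given 100 ng/ml LPS for 4 h, wild-type cells given the same LPS, unstimulated Jmjd3-/- cells and unstimulated wild-type cells. Jmjd3-/- cells, called knockout here, were labelled as null for Jmjd3 (Kdm6b), an enzyme that takes methyl groups off lysine 27 of histone H3. LPS is the bacterial ligand of Toll-like receptor 4. No label states the mouse strain, the number and age of the animals, or which exons the null allele lacks. Kdm6b itself read 10.83 with LPS and 9.82 unstimulated in knockout cells, against 11.23 with LPS and 10.33 unstimulated in wild-type cells on the brightest of its 3 probe sets (knockout minus wild type -0.41 and -0.51). A dimmer probe set differed by 0.85 with LPS and 0.64 unstimulated, but only its knockout array with LPS reached the floor of log2 6 (6.07). The last probe set read under the floor on all arrays, so none showed a clear loss. Since the probes may lie outside the deleted part, the readings do not check the genotype labels. Levels are log2 RMA intensities, and differences are on the same scale, so that a difference of 1 is 2-fold. A level under log2 6 was treated as under the floor, and a fold whose lower array lay there is given only as a lower bound against that floor. A gene counted as 2-fold or more higher or lower if the higher of the 2 arrays compared reached log2 6.

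PYHIN proteins, also called the p200 family, carry a HIN domain that binds double-stranded DNA, and most of them carry a pyrin domain that recruits other proteins. Aim2 senses DNA in the cytosol and assembles an inflammasome, the caspase-1-activating complex, whereas the protein of Ifi202b has HIN domains but no pyrin domain and can hold Aim2 back. Most Trim proteins are ubiquitin ligases with a RING domain. Primate TRIM5 blocks incoming retroviruses, and in the mouse the corresponding locus has expanded into several copies that include Trim5, Trim12a and the Trim30 genes. Many genes of both clusters are induced by interferon, which LPS-treated macrophages release, through transcription factors that bind the interferon-stimulated response element (ISRE).

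The start-site regions of the members are shown because some of them hold matches to motifs of interferon-induced factors and some are near copies of each other. RefSeq windows (GRCm38.p6, a C57BL/6J genome) of 250 bases before to 50 bases after a start site were available for 8 of the 9 genes, in 11 windows. The motifs searched were the ISRE core (GAAA, any 2 bases, GAAA), on both strands, and TTCNNNGAA, the gamma-activated site, which reads the same on both strands. The capitals below mark matches, and positions count from the start site, with -1 as the base before it. In Ifi202b, bases -250 to -1 (chr1:173982845-173983094, minus strand) hold 1 gamma-activated site at -148 to -140 and no ISRE core.
Ifi202b: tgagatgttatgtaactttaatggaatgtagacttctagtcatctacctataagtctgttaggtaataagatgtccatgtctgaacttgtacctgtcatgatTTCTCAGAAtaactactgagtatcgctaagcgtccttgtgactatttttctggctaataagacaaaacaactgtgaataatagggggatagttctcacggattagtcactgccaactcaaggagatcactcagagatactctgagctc

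Ifi203 and Mndal shared an identical run of 139 bases, in which the ISRE core of Ifi203 lay at -35 to -26 and that of Mndal at -36 to -27. Their last 100 bases before the start site (chr1:173942493-173942592 and chr1:173880188-173880287, both on the minus strand) are set side by side.
Ifi203: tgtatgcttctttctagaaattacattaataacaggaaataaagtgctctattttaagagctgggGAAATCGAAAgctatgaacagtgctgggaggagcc
Mndal: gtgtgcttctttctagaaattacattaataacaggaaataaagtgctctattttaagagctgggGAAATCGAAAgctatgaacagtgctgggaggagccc

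Trim12a and Trim5 shared the longest identical run among members of a cluster, 241 bases, from -191 to 50 in Trim12a and from -250 to -10 in Trim5. The same ISRE core therefore lies at 11 to 20 in Trim12a, after its annotated start, and at -49 to -40 in Trim5. The stretches shown run from -100 to 24 in Trim12a (chr7:104315472-104315595, minus strand) and from -157 to -1 in Trim5 (chr7:104288107-104288263, minus strand). Trim30d (chr7:104507850-104507949, minus strand, -100 to -1) has its core at -41 to -32 and shared 118 identical bases with Trim30a, whose core at the farther upstream of its 2 annotated starts lies at -36 to -27.
Trim12a: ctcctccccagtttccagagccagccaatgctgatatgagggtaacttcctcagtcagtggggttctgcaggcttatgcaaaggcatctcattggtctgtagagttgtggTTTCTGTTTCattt
Trim5: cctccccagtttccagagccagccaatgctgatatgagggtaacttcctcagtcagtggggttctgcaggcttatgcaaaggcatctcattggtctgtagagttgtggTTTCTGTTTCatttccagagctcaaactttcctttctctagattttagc
Trim30d: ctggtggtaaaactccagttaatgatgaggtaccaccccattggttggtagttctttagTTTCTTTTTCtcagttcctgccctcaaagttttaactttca

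In all, 6 of the 8 genes with a window had an ISRE core (Ifi203, Mndal, Trim12a, Trim5, Trim30a and Trim30d), against 3.99% of 27025 genes. By window these were 8 of 11, against 3.44% of 32851. The gamma-activated site was found in 1 of the 8 genes, Ifi202b, against 9.55% of genes, and Aim2 had neither motif. Members with near-identical windows are not independent of each other, and a match describes the letters of the reference genome only.

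Among the members, Ifi202b and Trim12a stood apart between the genotypes, with readings under the floor on both wild-type arrays. Ifi202b (gene ID 26388, probe set 1421551_s_at) read 12.83 with LPS and 8.86 unstimulated in knockout cells, against 5.41 with LPS and 3.65 unstimulated in wild-type cells. The knockout minus wild type difference was 7.42 with LPS and 5.21 unstimulated, at least 114-fold and at least 7.25-fold against the floor. Its probe set is of the class marked _s_at, which can read several related transcripts.

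Trim12a (gene ID 76681), a relative of Trim5, read 9.38 with LPS and 6.75 unstimulated in knockout cells, against 3.40 with LPS and 3.04 unstimulated in wild-type cells. These are values of probe set 1437432_a_at, and the differences of 5.98 with LPS and 3.71 unstimulated were at least 10.4-fold and at least 1.68-fold against the floor. The other Trim12a probe set, 1420648_at, lay under the floor on all 4 arrays and did not show this difference. It read 3.49 with LPS and 3.21 unstimulated in knockout cells, against 4.02 with LPS and 3.51 unstimulated in wild-type cells. The genotype difference of Trim12a therefore rests on 1 of its 2 probe sets.

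Trim5 (gene ID 667823), the mouse gene named after the primate retrovirus restriction factor, reached the floor on 1 array. It read 6.79 with LPS and 5.62 unstimulated in knockout cells, against 5.23 with LPS and 4.18 unstimulated in wild-type cells. The difference with LPS, 1.56, was at least 1.73-fold against the floor, and unstimulated both arrays lay under it.

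**Figure D1:**
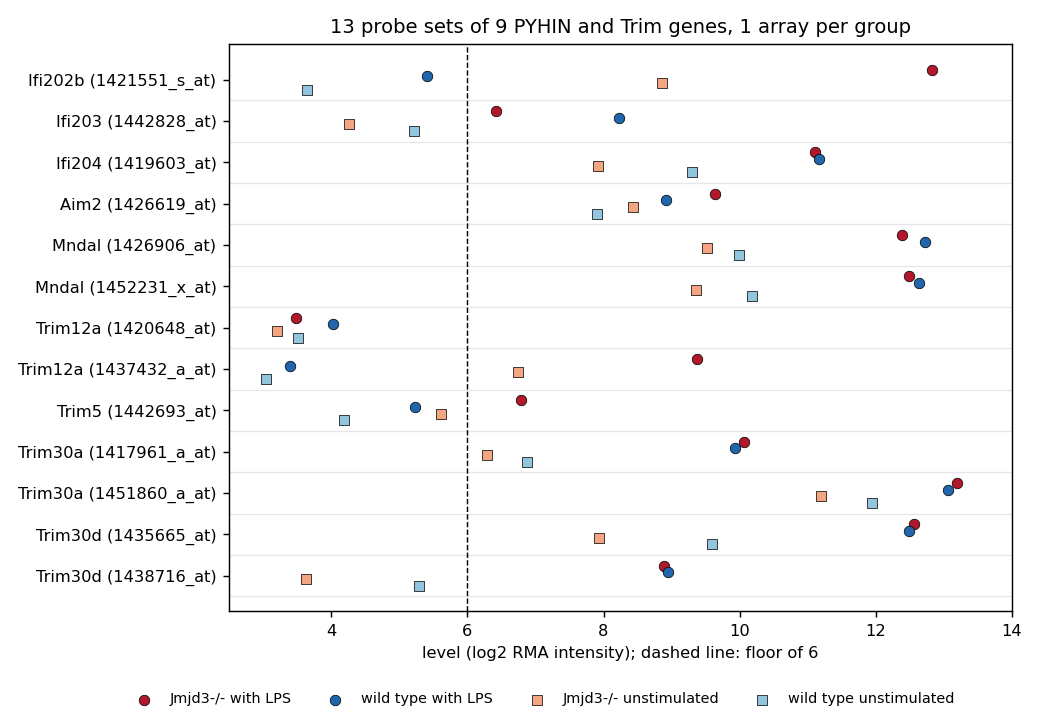
Levels of the 13 probe sets on the 4 arrays. The horizontal axis is the log2 RMA intensity, each symbol is 1 array, circles are LPS-treated and squares unstimulated cells, and the dashed line is the floor of log2 6. Ifi202b and the lower of the Trim12a rows (1437432_a_at) are above the floor on both knockout arrays and under it on both wild-type arrays.

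Markers of other cells differed between the genotypes beside these genes. All 12 stromal markers reached the floor on each knockout array, against 5 with LPS and 3 unstimulated in wild type, and their summed level was log2 14.71 and 14.99 in the knockout and 9.64 and 9.43 in wild type, with LPS and unstimulated in that order. Of 11 measured granulocyte markers all reached the floor on both knockout arrays, against 6 and 3 in wild type, with summed levels of 15.22 and 15.22 in the knockout and 12.22 and 11.76 in wild type. In both states 10 of these exceeded wild type in knockout cells by at least the 2-fold limit, and Mmp8, a neutrophil collagenase, was lower (-3.41 with LPS and -2.43 unstimulated). The 7 macrophage markers were at the floor or above on every array, with summed levels between 15.03 and 15.16. With LPS 2 of them were 2-fold or more lower in the knockout, Itgam (-1.03) and Mertk (-1.09). Unstimulated 1 was, Itgam (-1.04), and in both states 0 were higher by that limit. Mast cell, basophil and eosinophil markers reached the floor in 0 and 1 of 5 cases in the knockout and in 4 and 2 in wild type, with summed levels of 7.14 and 7.63 against 9.62 and 9.11. Of 5 measured T, B and NK cell markers 0 reached it in the knockout and 2 in wild type in either state, with Cd79a, Ncr1 and Nkg7 under the floor throughout. Dendritic cell markers reached it in 1 and 0 of 5 cases in the knockout and in 2 and 1 in wild type, with Flt3, Xcr1 and Siglech under the floor throughout, and none of 3 erythroid markers did. The part of other cells in the genotype differences of the members was not tested. The make-up of the cultures was not measured, and from array levels more cells of a type and more RNA per cell cannot be told apart.

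The other PYHIN members did not separate by genotype in this way. Aim2 (gene ID 383619), the cytosolic DNA sensor, read 9.64 with LPS and 8.43 unstimulated in knockout cells, against 8.92 with LPS and 7.90 unstimulated in wild-type cells. It was higher in the knockout by 0.72 and 0.53, both under 2-fold. Ifi203 (gene ID 15950), a further p200 gene, read 6.42 with LPS and 4.26 unstimulated in knockout cells, against 8.23 with LPS and 5.22 unstimulated in wild-type cells. It was the member with the lowest difference with LPS, -1.80 (3.49-fold lower in the knockout), and both unstimulated arrays lay under the floor. A further 3 probe sets list Ifi203 beside other genes and are not assigned to it, and their differences with LPS were 0.06, 0.09 and -0.06.

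Ifi204 (gene ID 15951), whose protein resembles human IFI16, read 11.11 with LPS and 7.92 unstimulated in knockout cells, against 11.17 with LPS and 9.30 unstimulated in wild-type cells. It was lower in the unstimulated knockout by 2.60-fold (-1.38), while the LPS-treated arrays differed by -0.06. Mndal (gene ID 100040462), which resembles the human myeloid nuclear antigen MNDA, read 12.49 with LPS and 9.36 unstimulated in knockout cells, against 12.63 with LPS and 10.17 unstimulated in wild-type cells on its brighter probe set. Its genotype differences were -0.14 with LPS and -0.81 unstimulated there, and -0.34 and -0.47 on its other probe set.

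The Trim30 genes showed the same order of arrays as Ifi204 without LPS. Trim30d (gene ID 209387) read 12.57 with LPS and 7.93 unstimulated in knockout cells, against 12.49 with LPS and 9.59 unstimulated in wild-type cells. The unstimulated difference was -1.66 (3.16-fold lower in the knockout) and the LPS-treated arrays differed by 0.08. Its dimmer probe set differed by -0.06 with LPS and read under the floor on both unstimulated arrays. Trim30a (gene ID 20128), reported to restrain Toll-like receptor signalling to NF-kB in mouse macrophages, read 13.20 with LPS and 11.20 unstimulated in knockout cells, against 13.05 with LPS and 11.95 unstimulated in wild-type cells. It differed by 0.14 with LPS and by -0.75 unstimulated, and its dimmer probe set by 0.13 and -0.59.

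Counted over the set, 3 of 9 members (Ifi202b, Trim12a and, by its measured readings, Trim5) were higher in knockout cells with LPS by 2-fold or more and 1 was lower (Ifi203). Over all genes 9.76% were higher and 5.65% lower in that comparison, 15.4% in either direction. The choice of the members used these differences, so nothing is read from the count. Unstimulated, 2 of the 7 members past the floor were higher (Ifi202b and, by its measured readings, Trim12a) and 2 lower (Ifi204 and Trim30d), with 9.54% higher and 5.74% lower over all genes, 15.3% in either direction. The median difference of the members was 0.14 with LPS and -0.75 unstimulated (7 members past the floor), beside 0.04 and 0.07 over all genes past the floor. Without probe sets of the _s_at, _x_at and _a_at classes, Ifi202b and Trim30a have no value, Trim12a is left with its dim probe set, and 1 higher and 1 lower member remain with LPS and 0 and 2 unstimulated.

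Measured genes beside Ifi202b and Trim12a had smaller differences. Beside Ifi202b, the 3 other p200 genes with a 1-gene probe set, Ifi207, Ifi209 and Ifi213, differed with LPS by 0.08, -0.48 and -0.28. Unstimulated, Ifi209 (-1.58) and, by its measured readings, Ifi213 (-1.64) were 2-fold or more lower in the knockout, and Ifi207 differed by 0.12. Ifi213 read 5.35 there in knockout cells, under the floor, against 6.99 in wild-type cells, so the size of its difference is uncertain. In the Trim cluster, Trim12c differed by 0.35 with LPS and -0.39 unstimulated, and Trim34a by 0.23 and -0.53. Trim6 read 6.12 with LPS and 5.82 unstimulated in knockout cells, against 4.38 with LPS and 4.85 unstimulated in wild-type cells. Its difference with LPS, 1.74, rests on 1 array just above the floor, and unstimulated both arrays lay under it.

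Genes flanking the clusters mostly read under the floor. Of 20 neighbours of the PYHIN cluster, 10 on each side, 5 were past the floor with LPS. Of these, 2 were 2-fold or more lower in the knockout, Slamf8 (-1.52) and, by its measured readings, Fcer1a (-4.58), with none higher. Fcer1a read 2.73 there in knockout cells, under the floor, against 7.31 in wild-type cells, so the size of its difference is uncertain. Unstimulated, 6 of the neighbours were past the floor and 1 was lower, Slamf8 (-3.81), again with none higher. Of 20 neighbours of the Trim cluster, 1 was past the floor with LPS and under 2-fold. Unstimulated 2 were past it, of which Fam160a2 was higher by its measured readings (1.12). It read 6.41 in knockout cells against 5.29 in wild-type cells, the latter under the floor. Fcer1a is also 1 of the mast cell markers above.

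By the design of the study LPS is the other factor, and its effect over both genotypes was tested across 9385 genes in an additive limma model, with p-values adjusted by Benjamini-Hochberg over all of them. LPS raised 7 of the 9 members, all 5 PYHIN genes and the 2 Trim30 genes, and lowered none. Over all genes tested 11.2% rose and 18.8% fell, 30.1% in either direction. The median effect of the members was 2.53, beside -0.22 over all genes tested. The error of each gene rests on 1 residual degree of freedom, namely on how far apart its responses in knockout and wild type were, and was moderated across genes. A real difference in response between the genotypes enters this error, so the p-values do not measure a spread between replicates. Nothing in the labels says that the samples came from separate cultures or animals, so the rest of the error may be technical.

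Trim30d rose the most, by 3.77 ± 0.42 (SE; limma, adjusted p = 0.00795), with the LPS array above the unstimulated one in both genotypes. Its response was 4.64 in the knockout and 2.90 in wild type, and on the dimmer probe set 5.26 and 3.66. On that probe set both unstimulated arrays lay under the floor. Its responses are therefore shown only as at least 7.38-fold in the knockout and at least 7.69-fold in wild type. Trim30a rose by 1.55 ± 0.23 (SE; limma, adjusted p = 0.0128), with the LPS array above the unstimulated one in both genotypes, and its response in the knockout exceeded by 0.89 the 1.10 of wild type. Its dimmer probe set had larger responses, 3.76 and 3.05, so the size of the Trim30a effect depends on the probe set.

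Mndal rose by 2.79 ± 0.21 (SE; limma, adjusted p = 0.00364), with the LPS array above the unstimulated one in both genotypes. The responses were 3.12 in the knockout and 2.45 in wild type on its brighter probe set, and 2.86 and 2.74 on the other. Ifi203 rose by 2.58 ± 0.32 (SE; limma, adjusted p = 0.00979), but the unstimulated arrays of both genotypes lay under the floor, so the size is uncertain. With 64 added to the linear values the Ifi203 effect was 1.35 (limma, adjusted p = 0.0224), and against the floor its response was at least 1.34-fold in the knockout and at least 4.68-fold in wild type. Ifi204 rose by 2.53 ± 0.35 (SE; limma, adjusted p = 0.0111), with responses of 3.19 in the knockout and 1.87 in wild type. Aim2 had the smallest effect among the PYHIN members, 1.11 ± 0.19 (SE; limma, adjusted p = 0.0171), with responses of 1.21 in the knockout and 1.02 in wild type.

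Ifi202b rose by 2.87 ± 0.53 (SE; limma, adjusted p = 0.0215), with the LPS array above the unstimulated one in both genotypes. In the knockout the response was 3.97 (15.7-fold), whereas in wild type both readings lay under the floor and differed by 1.76. With 64 added to the linear values, which shrinks differences between dim readings, the call was lost (limma, adjusted p = 0.0894), and over its 7 alternatives the adjusted p lay between 0.00767 and 0.606. Trim12a did not pass, with an effect of 1.496 (limma, adjusted p = 0.121), made of 2.63 in the knockout and 0.36 between 2 readings under the floor in wild type. Trim5 did not pass either, with 1.11 (limma, adjusted p = 0.0639) and responses of 1.17 in the knockout and 1.04 in wild type, the wild-type one under the floor. It passed under 4 of 7 alternatives, with adjusted p between 0.0293 and 0.461 over all 7. Without a genotype term in the model, 1 of the 9 members was called, Mndal (limma, adjusted p = 0.0440, the highest over its 8 alternatives, of which the lowest was 0.000801).

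In single arrays, all 9 members read higher with LPS in the knockout by 2-fold or more, of which Ifi203 and Trim5, unstimulated under the floor, are shown only as at least 1.34-fold and at least 1.73-fold. In that comparison 11% of genes were higher and 15.5% lower (26.5% together). In wild type the 6 members past the floor also read higher by 2-fold or more, where 9.86% of genes were higher and 14.3% lower (24.2% together). The other members (Ifi202b, Trim12a and Trim5) lay under the floor on both wild-type arrays. The knockout response was larger than the wild-type response for 8 of 9 members, Ifi203 being the exception at -0.84. The median of this difference between responses was 0.89 for the members and -0.03 over 9385 genes, of which 4463 were above 0. It was largest for Trim12a (2.27) and Ifi202b (2.21), whose wild-type readings were all under the floor, then for Trim30d (1.74) and Ifi204 (1.31). Among the members above 0 it was smallest for Trim5 (0.12) and Aim2 (0.19), and it was 0.12 for Mndal on its other probe set. With 1 array per group this difference has no test. It equals the genotype difference with LPS minus the one unstimulated, and those were known when the members were chosen. Nothing is therefore read from its count or median.

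**Figure D2:**
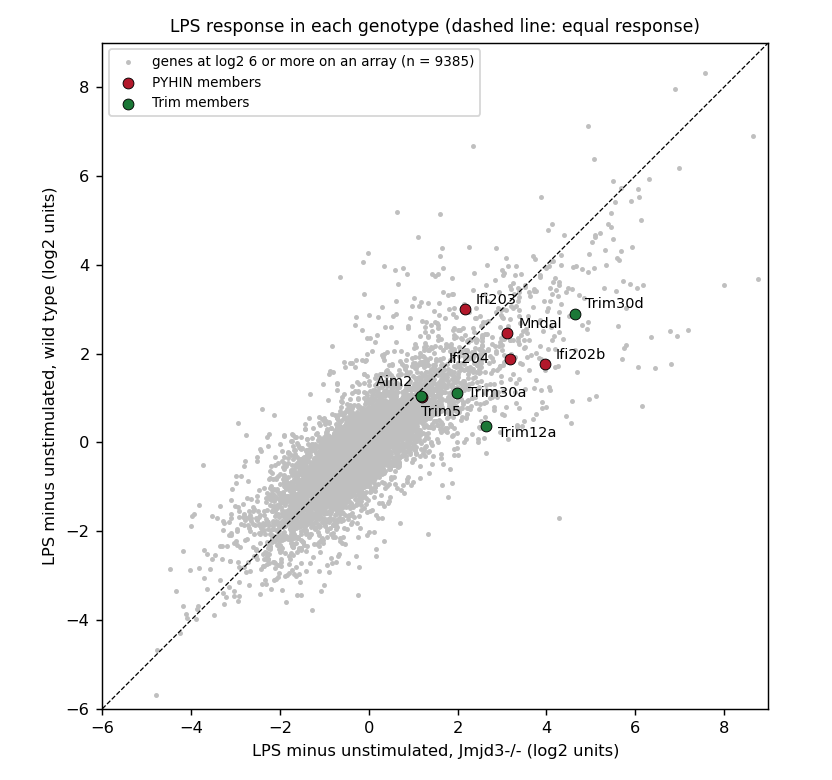
LPS response in the knockout (horizontal axis) and in wild type (vertical axis), in log2 units, of 9385 genes in grey and the 9 members in colour, with the line of equal response dashed. Of the members, 8 lie to the right of the line, with Trim12a (2.63 and 0.36) and Ifi202b (3.97 and 1.76) farthest from it, and Ifi203 lies to its left.

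Relatives of the members and genes of their pathways were counted from lists. All 3 measured other p200 genes rose with LPS, led by Ifi213 (5.00), whose unstimulated knockout array lay under the floor (5.35). In the Trim cluster Trim34a (1.75) and Trim12c (1.48) rose and Trim6 (-0.08) did not pass. Of 5 Trim genes elsewhere in the genome 4 rose, led by Trim21 (2.44), an antibody receptor of the cytosol, and Trim56 (0.13) did not pass. Among 12 DNA-sensing and inflammasome partners 9 rose and none fell. They included Il1b (4.86), the interleukin 1 beta gene processed by caspase-1, Casp4 (3.49), Zbp1 (3.22), a sensor of Z-form nucleic acids, Casp1 (1.30) and Cgas (1.16), the other main cytosolic DNA sensor. Pycard, the adaptor between Aim2 and caspase-1, differed by 0.01 and did not pass.

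Of 9 measured genes of type I interferon signalling 6 rose. Ifnb1, the interferon beta gene, rose by 4.88, and the transcription factor genes Irf7 by 3.15, Stat2 by 3.02, Irf1 by 1.87 and Irf9 by 1.49, Stat2 and Irf9 being subunits of the factor that binds the ISRE. The receptor genes Ifnar1 (0.05) and Ifnar2 (0.40) did not pass. All 6 measured interferon-stimulated readout genes rose, from 3.56 for Rsad2 to 5.88 for Mx2, and their median of 5.03 compares with 2.53 for the members. Unstimulated, Mx2 (4.33 in knockout and 4.20 in wild-type cells) and Ifnb1 (3.54 and 3.76) lay under the floor. The sizes of these effects, and with Mx2 the median, are therefore uncertain.

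**Figure D3:**
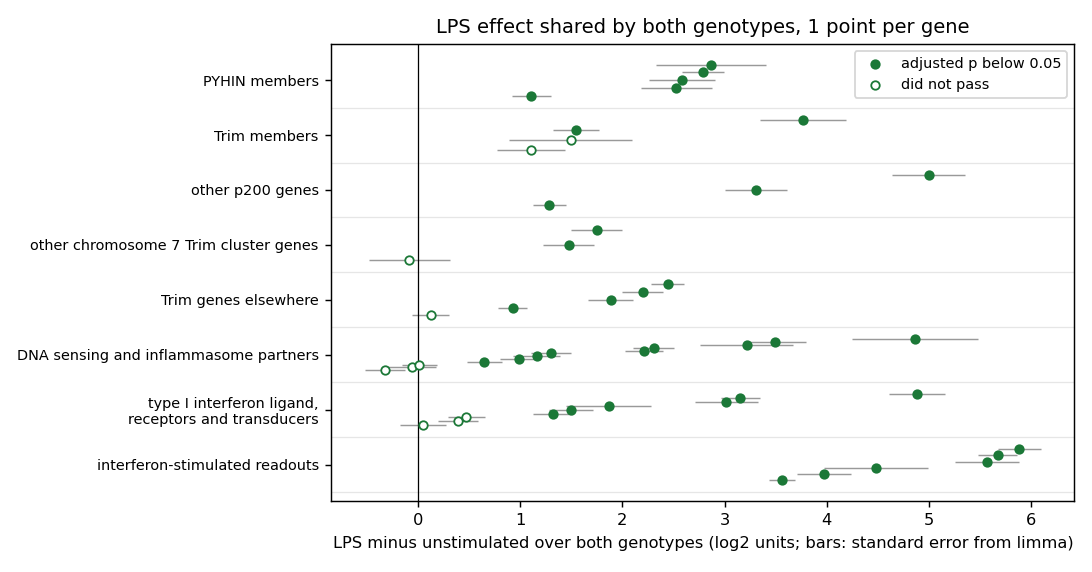
LPS effect over both genotypes (horizontal axis, log2 units) of the members and of 6 lists of related genes, 1 point per gene with its standard error from limma. Filled points passed an adjusted p below 0.05. All 5 PYHIN members and 2 of the 4 Trim members are filled, and the 6 interferon-stimulated readouts lie between 3.56 and 5.88.

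Between the genotypes, the lists of DNA-sensing partners, interferon pathway genes and readouts held differences of 2-fold or more without LPS. With LPS none of 12 DNA-sensing partners, 9 interferon pathway genes and 6 readouts was 2-fold or more different, and their medians were -0.09, 0.16 and 0.06. Unstimulated, 4 of 12 partners were 2-fold or more lower in the knockout, Il1b (-3.36), Casp4 (-1.71), Zbp1 (-1.64) and Nlrp3 (-1.17), with none higher and a median of -0.57. Of 5 readouts past the floor 2 were lower, Cxcl10 (-2.06) and Oasl1 (-1.25), and of 8 interferon pathway genes 1 was, Irf1 (-1.65). Over all genes 5.74% were lower and 9.54% higher in that comparison. The highest differences among the partners and the interferon pathway genes, both under 2-fold, were 0.93 (Il18) and 0.82 (Irf7). Ifi204 and Trim30d, with -1.38 and -1.66 unstimulated and -0.06 and 0.08 with LPS, had values of this kind, while those of Ifi202b and Trim12a were higher in the knockout in both states. The 4 differences share arrays, so their values are given side by side without a measure of agreement.

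Over the 4 arrays, the gene whose pattern was most like that of Ifi202b among 9384 others was Trim12a, by the root mean square difference of the centred values (1.01). Chil1 (1.21), Camp (1.39), Prg2 (1.41) and Has2 (1.43) followed. Both Ifi202b and Trim12a were chosen with their genotype differences known, and their wild-type readings all lay under the floor. The first rank of Trim12a is therefore a description from which nothing is read. The gene most like Trim12a was Chil1 (0.27), which read 10.03 with LPS in knockout cells against 4.43 in wild-type cells, followed by Col12a1 (0.59), Tnfrsf11b (0.63), Snai2 (0.65) and Osmr (0.68). Camp is in the granulocyte marker list and Has2 in the stromal one.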

How the data were processed

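The authors deposited 1 table of log2 intensities, 1 value per probe set for each of 4 Affymetrix arrays, made with RMA per the submitters' processing notes, with its version not given. They were used without further normalization. Gene names came from the platform annotation of GEO, updated through gene identifiers to the RefSeq table of GRCm38.p6 (34741 of 34945 probe sets with 1 gene matched). Probe sets with several genes (932), with none (9160) and Affymetrix controls (64) were left out of the comparisons. Of several probe sets of a gene, the one with the highest mean over the 4 arrays stood for it. The LPS effect was tested with limma 3.58.1 in R 4.3.3 (genotype and LPS as additive terms, intensity trend) on genes at log2 6 or more on an array, at a Benjamini-Hochberg adjusted p below 0.05. With 4 arrays, their number limits the precision. The members, gene lists and alternatives were chosen with earlier results of these data known. All members are named, and list genes as examples by size or role. The most similar patterns are the 5 genes nearest in root mean square difference. Python 3.11.15, numpy 2.4.6 and pandas 2.3.3 were used.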

Additional observations from a re-analysis of the deposited data

Results flagged for a closer look

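For 2 members the genotype difference had opposite signs in the 2 states. Trim30d differed between knockout and wild type by 0.079 with LPS and by -1.66 unstimulated, and Trim30a by 0.14 with LPS and by -0.75 unstimulated. The difference between the states was not tested, since each group had 1 array. The values with LPS lay within the median spread between probe sets of the same gene (0.16), so their signs carry little weight, and 30.7% of the 9385 genes had opposite signs in the same way.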

How the results depend on the processing

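The arrays have no replicates, so sizes rest on single hybridisations. No paired analysis was possible because each group holds 1 array with no replicate number to pair, beyond the genotype term, which sets LPS against unstimulated cells within each genotype. The number of members called for LPS, 7, lay between 5 and 8 under 8 alternatives (floors, quantile normalisation, 64 added, probe set choice, no trend, all probe sets in the fit) and was 1 without a genotype term, whose model leaves the genotype differences in the error; over all genes that model called 267 in place of 2823. Counts of members 2-fold or more different kept within 1.5 times except without _s_at, _x_at and _a_at probe sets, where 2 in place of 4 were different between genotypes with LPS and 2 in place of 4 unstimulated, since that choice removes probe sets. There the differences of Trim12a were -0.53 with LPS and -0.30 unstimulated, both from a probe set under the floor. With 64 added to the linear values Ifi202b differed by 6.11 with LPS and 2.79 unstimulated, and Trim12a by 3.29 and 1.25.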

Other observations

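The annotation lists a member beside other genes for 6 further probe sets, which are not assigned to any gene here. One of them, whose list holds Ifi202b and an unnamed locus, read 11.69 with LPS and 8.51 unstimulated in knockout cells, against 3.58 with LPS and 2.97 unstimulated in wild-type cells, with both wild-type arrays under the floor. The other 5 differed between knockout and wild type by no more than 0.13 in size with LPS and by -1.60 to -0.35 unstimulated. All 6 were higher with LPS in both genotypes, by 2.88 to 4.82 in the knockout and by 0.60 to 3.71 in wild type.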
